A study of Homo sapiens with 6 samples.

Results

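Long noncoding RNAs (lncRNAs) that RPE1 cells express at a good level were compared between control and OFD1-depleted cells. Members were chosen by their control values: genes typed lncRNA in the deposited table, outside alternative and patch contigs, whose mean over the 3 control samples was at least 5 FPKM (fragments per kilobase of transcript, scaled to the mapped fragments of each sample). This gave 133 of 16880 such lncRNA rows, in a table of 67130 rows, and all 133 passed the low-value filter for testing (an average of 1 FPKM or more across the 6 samples). Their control levels are therefore a description. Just inside the limit lay AC010776.2 and AL135925.1, with control means of 5.07 and 5.04 FPKM, and just outside it AC005224.3 and AC012313.1, with 4.99 and 4.92 FPKM.

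RNA-seq of total RNA was available for 6 samples of hTERT-RPE1-TOShOFD1 cells, an hTERT-immortalized human retinal pigment epithelial line that carries a lentiviral Tet-On short hairpin RNA against OFD1, a protein of centrioles and centriolar satellites. The control group (genotype WT, treatment control in the labels) had 3 samples without doxycycline, and the OFD1-depleted group (genotype OFD1 knockdown) had 3 samples given 200 ng/mL doxycycline for 72 h. All 6 samples carry the hairpin construct, and no sample received doxycycline without it, so effects of the drug and of the depletion cannot be told apart. The labels name the tissue as retina, yet these are cultured cells. The legend of the study's RNA-seq heatmap calls each column a biological replicate, but nothing in the labels says that replicates came from separate cultures. The p-values therefore measure only the spread between these samples.

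OFD1 stood at 3.34, 3.62 and 3.44 FPKM in the control samples and at 0.795, 0.763 and 1.43 FPKM after doxycycline, with no overlap (28.7% of the control mean; log2 fold change −1.75, SE 0.26, limma adjusted p = 0.00085). Of 4 epithelial markers KRT8 and KRT18 were above 100 FPKM on average in both groups while CDH1 and EPCAM were at or near 0, and of 3 mesenchymal markers VIM and FN1 were above 100 FPKM and COL1A1 was at 8.68 FPKM in control and 24.4 in depleted samples. Of 10 pigment epithelium markers, MITF was at 5.39 and 6.94 FPKM and OTX2 at 1.67 and 1.94 FPKM on average, BEST1 and PMEL reached 4.33 and 0.627 FPKM, and RPE65, TYR, DCT, TYRP1, TTR and RLBP1 did not exceed 0.209 FPKM in any sample. The photoreceptor genes CRX, RCVRN and PDE6B were listed at 0 in all 6 samples, and NRL did not exceed 0.286 FPKM. OFD1-depleted replicate 2 lay farthest from its group (median absolute log2 difference from the other 2 samples of 0.30, against 0.11 to 0.20 for the other 5), and its FPKM values summed to 493510 against 408302 to 444337. Read depth is not in the table, and an estimate from the spacing of low values gave about 37.85 to 44.25 M fragments per sample, with only 21.0% to 23.8% of those values on whole steps.

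LncRNAs are transcripts without a long open reading frame. Those with a known role act as RNA, for example as scaffolds of nuclear bodies or as sponges of RNA-binding proteins, or their transcription itself matters. Some are spliced carriers of small RNAs: small nucleolar RNAs (snoRNAs), which guide chemical modification and processing of ribosomal RNA, are cut from the introns of host genes, and microRNAs from primary transcripts named as their hosts. Many others start next to, or run antisense to, a protein-coding gene.

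More of the lncRNAs rose than fell in OFD1-depleted cells, and 8 of those that rose were snoRNA host genes. Of the 133 lncRNAs, 20 rose (15.0%), 11 fell (8.27%) and 102 did not pass the test, limma on log2(FPKM + 0.1) with adjusted p under 0.05 over all genes tested. Over all 12025 genes tested, 5.07% were higher and 11.9% lower. Protein-coding genes with the same control mean of at least 5 FPKM numbered 7636, of which 4.7% were higher and 13.9% lower. The 560 lncRNAs tested below the limit leaned the same way as the members, with 9.46% higher and 3.04% lower. The split depended on scaling: it was 13 higher and 13 lower after scaling each sample to the same total (TPM) and 28 and 9 after quantile normalization, while all genes had 272 higher and 1990 lower, and 1085 and 1313.

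The sizes of change were small for most members. The median log2 fold change was 0.05 (77 above 0, 56 below), against −0.03 over all genes and −0.04 over the coding genes at this level, and 3 members changed by more than 1 on the log2 scale in either direction (VIM-AS1, HIF1A-AS3 and PP7080, of which PP7080 did not pass the test). Values of the 2 groups did not overlap for 36 members higher (27.1%) and 18 lower (13.5%), against 13.8% and 22.3% of all genes. The medians of the 3 OFD1-depleted samples relative to the control mean were 0.10, 0.23 and 0.04, the highest in replicate 2. With TPM scaling the median over all genes moved by −0.145 in log2 units, and the members' median turned to −0.09. The members' median was 0.154 without control replicate 1, 0.157 without OFD1-depleted replicate 3 and 0.177 with the 5 FPKM limit set on the mean of all 6 samples. It lay 0.09 above the median of all genes as deposited, a difference that a scaling of whole samples leaves nearly fixed, and 0.12 above after quantile normalization. Leaving out OFD1-depleted replicate 2 gave 26 higher and 16 lower. Leaving out control replicate 1 or control replicate 3 left 11 higher in each case and 5 or 6 lower, and 6 were lower without OFD1-depleted replicate 3. With each sample left out in turn, 13 of the 31 stayed past the threshold each time: HIF1A-AS3, SNHG8, DANCR, SNHG16, AC073365.1, EPB41L4A-AS1, SFTA1P, AC135050.6, SNHG4 and LNCOG among those that rose, and VIM-AS1, AL391121.1 and MIR31HG among those that fell. Testing without the low-value filter, over 28501 genes, left 10 of the 20 and 3 of the 11 past the threshold. Among the genes named by rule, GAS5, SNHG5, EPB41L4A-AS1, NEAT1, MIR100HG, AC073365.1, OIP5-AS1, AC011603.2, SLC9A3-AS1, AC002401.4, LINC01833, CRNDE, LINC00339 and AL358781.1 then lost the call. LNCOG, PAX8-AS1, MAN1B1-DT, AC016542.1, AP000695.1 and AC093673.1 were outside that rule, and this list does not cover them.

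**Figure D1:**
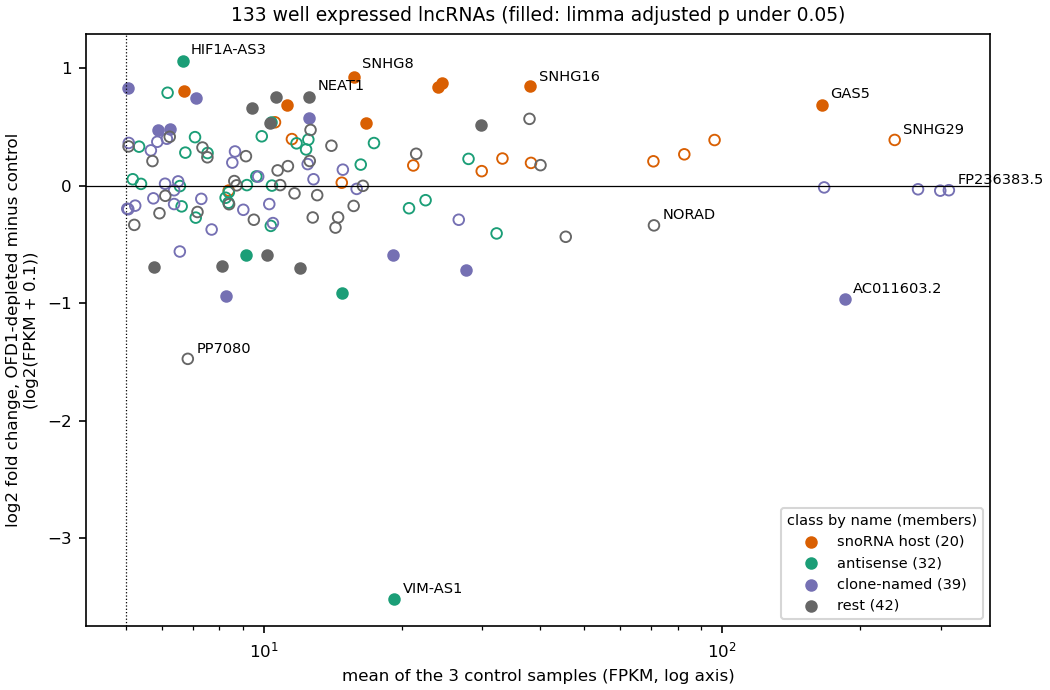
Mean of the 3 control samples (x axis, FPKM, log scale) against the log2 fold change of OFD1-depleted minus control (y axis) for the 133 lncRNAs, coloured by class of name, with filled points past a limma adjusted p of 0.05. The 20 snoRNA host genes lie above or close to the zero line, with 8 filled, and VIM-AS1 lies alone at −3.52.

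The control means ran from 5.04 to 312.4 FPKM with a median of 10.4. In all, 29 members reached 20 FPKM and 7 reached 100 FPKM. The median coefficient of variation between control samples was 12.1%, against 8.24% for the coding genes at this level, and canonical transcripts had a median length of 1576 bases and 3 exons, with 29 members of a single exon.

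SnoRNA host genes made up 20 members, and 8 of them rose, none fell and 12 did not pass the test. Their median log2 fold change was 0.39, and 19 of 20 lay above 0 (17 of 20 in TPM), SNHG11 being the exception at −0.04. The host median lay 0.42 above that of all genes as deposited and 0.365 above it after quantile normalization. The other 113 members had 12 higher and 11 lower, with a median of 0.00. Summed over the 20 hosts, the levels were 925.0, 1046 and 903.6 FPKM in control samples and 1249, 1530 and 1199 FPKM in OFD1-depleted samples, which did not overlap, and every depleted sample had a positive host median of 0.29, 0.57 and 0.33. Without GAS5, whose name comes from its rise in growth-arrested cells, 7 of 19 rose, with the median at 0.39. In bulk samples, fewer cells of a kind and less RNA per cell cannot be told apart.

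GAS5, the host of 11 snoRNAs in the RefSeq annotation (chr1:173858559-173868882, minus strand, GRCh38), was the most abundant host past the threshold. Its values were 154.6, 189.3 and 152.2 FPKM in control and 261.3, 303.4 and 235.5 FPKM in OFD1-depleted samples. Every depleted value lay above every control value (log2 fold change 0.69, SE 0.15, limma adjusted p = 0.0085). The call was narrowly lost without control replicate 1 (adjusted p = 0.0529) or control replicate 3 (0.0512).

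SNHG8, which carries SNORA24, showed the largest rise of a host, from 14.4, 17.9 and 14.9 to 26.2, 37.8 and 26.9 FPKM (log2 fold change 0.93, limma adjusted p = 0.0029). DANCR, the host of SNORA26 and known for holding back differentiation in progenitor cells, was at 27.2, 24.1 and 22.1 FPKM in control and 42.6, 50.9 and 41.3 FPKM in depleted samples (0.87, limma adjusted p = 0.0014). SNHG16, with SNORD1A, SNORD1B and SNORD1C in its introns, was at 34.0, 37.8 and 42.7 against 64.8, 67.6 and 74.1 FPKM (0.85, limma adjusted p = 0.0012). Depleted samples were higher in all 3 genes with no overlap, and for SNHG8 and DANCR replicate 2 was the highest.

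SNHG5, which holds SNORD50A and SNORD50B, was at 28.4, 25.9 and 17.7 FPKM in control and 41.8, 50.7 and 35.2 FPKM in depleted samples (0.84, limma adjusted p = 0.013, and 0.0529 without control replicate 3). EPB41L4A-AS1, the host of SNORA13, rose from 5.75, 7.21 and 7.17 to 11.0, 14.4 and 10.3 FPKM (0.80, limma adjusted p = 0.0068). Both genes were separate between the groups. SNHG4, the host of SNORA74A, was at 11.95, 10.8 and 10.9 FPKM in control and 18.9, 15.4 and 20.5 FPKM in depleted samples (0.69, limma adjusted p = 0.0071). SNHG3, with SNORA73A and SNORA73B, was at 17.1, 14.8 and 18.2 against 24.9, 23.5 and 24.1 FPKM (0.53, limma adjusted p = 0.016). For SNHG3 the adjusted p was 0.063, 0.0581 and 0.0515 without control replicate 1, control replicate 2 and OFD1-depleted replicate 1, and 0.0757 in TPM.

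The hosts that did not pass the test included the most abundant one. SNHG29, which carries SNORD49A, SNORD49B and SNORD65, was at 216.1, 274.0 and 223.9 FPKM in control and 295.6, 352.0 and 286.2 FPKM in depleted samples, which did not overlap (0.39, limma adjusted p = 0.096). ZFAS1, the host of the SNORD12 group, was at 94.3, 115.5 and 79.2 against 110.4, 140.4 and 124.8 FPKM, with overlap (0.39, limma adjusted p = 0.12). SNHG15 and SNHG17 were separate between the groups, at 0.54 and 0.40 (limma adjusted p = 0.070 and 0.081). In SNHG32 and SNHG7 the depleted group was spread by 1 sample: SNHG32 stood at 92.7, 142.0 and 74.9 FPKM against 82.7 on average in control, and SNHG7 at 39.2, 68.8 and 31.2 against 38.3. SNHG19, SNHG6, SNHG12, SNHG1 and SNHG18 had log2 fold changes of 0.02 to 0.23.

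**Figure D2:**
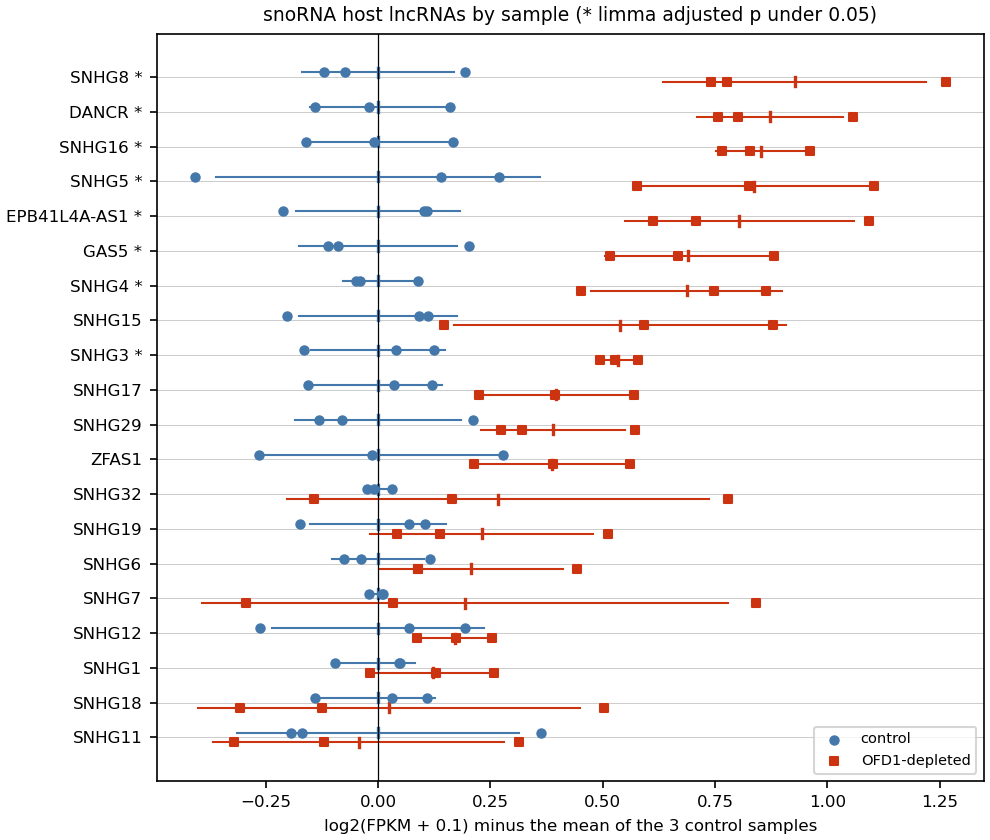
Each of the 20 snoRNA host lncRNAs by sample, as log2(FPKM + 0.1) minus the mean of its 3 control samples (x axis). Circles are control and squares OFD1-depleted samples, vertical ticks the group means and horizontal lines 1 SD to each side, and a star marks a limma adjusted p under 0.05. The 3 depleted samples lie above all 3 control samples in 11 genes, against 27.1% of all members and 13.8% of all genes tested. In SNHG32, SNHG7 and SNHG18, 1 depleted sample stretches the group.

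Protein-coding genes that hold a snoRNA were set beside the lncRNA hosts. Of 166 with a control mean of at least 5 FPKM, 11 were higher (6.63%) and 19 lower, with a median of 0.04 (5.8% higher and a median of −0.04 in the 138 left without ribosomal protein genes). Cytosolic ribosomal protein genes, the other large class tied to ribosome production, had 12 of 82 higher, 0 lower and a median of 0.40, close to that of the lncRNA hosts. The 8 snoRNA host lncRNAs tested below the limit had none past the threshold and a median of 0.35. No test was made of the difference between these sets.

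Messenger RNAs of ribosomal proteins and some snoRNA hosts are known to begin with a C followed by a run of pyrimidines, so the annotated starts of the hosts were read. Windows of 30 bases, from 10 before the annotated first base, were taken on the transcribed strand of GRCh38 at the GENCODE 44 canonical start. They are shown for the 4 hosts with the largest fold changes among the 6 that hold such a run at the start, and for 3 of the hosts that rose without one there. The run is in capitals from its C nearest the annotated first base, where that C lies within 3 bases of it. In SNHG29 the c just before the capitals belongs to the run as well.
GAS5 (chr1:173867970-173867999, minus): accatactgtCTTTTCgaggtaggagtcga
SNHG29 (chr17:16439027-16439056, plus): aaggtgtgacCTTTTCattcccgttgttat
ZFAS1 (chr20:49278632-49278661, plus): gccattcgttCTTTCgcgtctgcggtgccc
DANCR (chr4:52712491-52712520, plus): gcaggtcgcaggCCTCTTTgtcagctggag
SNHG16 (chr17:76557765-76557794, plus): cgttcttttcgaggtcggccgcgtggctgg
SNHG8 (chr4:118278698-118278727, plus): gcgcttcccccggaatagcgtcatcagttc
EPB41L4A-AS1 (chr5:112160516-112160545, plus): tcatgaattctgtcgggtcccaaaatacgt

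A run of a C and at least 4 further pyrimidines began there in 6 of the 20 hosts (30.0%), in 2 of the 8 that rose, in 15.2% of 112 other members and in 12.4% of all 36662 lncRNA and coding genes with a window. In ribosomal protein genes it did so in 65 of 82 (79.3%). Anywhere in the window the run was found in 13 hosts (65.0%), 92.7% of ribosomal protein genes and 37.3% of all genes. In SNHG16 it starts 6 bases, and in SNHG8 7 bases, before the annotated first base. The match is of letters only and depends on the annotated start.

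Of the genes named as microRNA hosts, 5 were members. Mature microRNAs also lie on the same strand inside other members, among them CYTOR, AC133644.2, DANCR, MEG3 and MUC20-OT1, which are not counted here. MIR100HG rose, MIR31HG fell, and MIR4435-2HG, MIR22HG and MIR222HG did not pass the test. MIR100HG carries miR-100, let-7a-2 and miR-125b-1, the human counterparts of a cluster known from developmental timing. It was at 31.97, 28.9 and 28.5 FPKM in control and 43.5, 36.2 and 48.7 FPKM in depleted samples, with no overlap (0.51, limma adjusted p = 0.028). That call was lost with any sample left out other than OFD1-depleted replicate 2, with adjusted p from 0.0682 without control replicate 1 to 0.116 without control replicate 3. It was also lost in TPM (adjusted p = 0.139), with the total set without mitochondrial genes (0.0949) and in limma without trend (0.0566). MIR31HG, the host of miR-31, was at 8.59, 7.69 and 8.02 against 4.58, 5.26 and 5.20 FPKM (−0.68, limma adjusted p = 0.0065), again with no overlap.

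A choice of the mature sequences that these transcripts carry (RefSeq, GRCh38) is shown, 1 arm of 7 microRNAs from 4 of the 5 hosts, because the host level is the only measure of them here. The seed, bases 2 to 8, is in capitals. Of the sequences shown, miR-221-3p and miR-222-3p from MIR222HG share a seed, and those from MIR100HG do not.
miR-100-5p (MIR100HG): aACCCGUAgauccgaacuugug
let-7a-5p (MIR100HG): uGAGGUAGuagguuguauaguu
miR-125b-5p (MIR100HG): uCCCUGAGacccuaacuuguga
miR-31-5p (MIR31HG): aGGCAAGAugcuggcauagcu
miR-221-3p (MIR222HG): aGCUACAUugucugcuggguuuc
miR-222-3p (MIR222HG): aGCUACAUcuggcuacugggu
miR-22-3p (MIR22HG): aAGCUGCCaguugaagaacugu

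MIR22HG was at 21.6, 20.8 and 22.2 FPKM in control and 26.1, 25.2 and 26.6 FPKM in depleted samples, with no overlap (0.27, limma adjusted p = 0.14). MIR222HG was at 13.7, 10.9 and 13.4 against 19.3, 13.2 and 21.1 FPKM, with overlap (0.47, limma adjusted p = 0.10), and MIR4435-2HG had a log2 fold change of 0.17. Mature microRNAs were not measured.

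Of 11 listed lncRNAs that act in the nucleus or in cis, a chosen and not a complete list, 6 were members: NEAT1 rose, none fell and 5 did not pass. NEAT1, the scaffold of paraspeckles (chr11:65422774-65445540, plus strand, with no coding gene overlapping it), was at 12.2, 14.2 and 11.3 FPKM in control and 27.3, 15.7 and 22.3 FPKM in depleted samples. Depleted replicate 2 lay close to the highest control value (0.76, SE 0.19, limma adjusted p = 0.019). The call was lost in TPM (adjusted p = 0.0718) and with the total set without mitochondrial genes (0.0548). The adjusted p was 0.0572, 0.0801, 0.0673 and 0.0604 without control replicate 1, control replicate 3, OFD1-depleted replicate 1 and OFD1-depleted replicate 3. MALAT1, of nuclear speckles, was at 14.1, 8.54 and 9.97 against 11.1, 9.24 and 11.8 FPKM, with its fitted change at 0.004 and of either sign under other scalings. CHASERR, which lies beside and lowers CHD2, was at 40.9, 54.7 and 41.2 against 29.8, 40.3 and 31.0 FPKM, separate by a narrow margin (−0.44, limma adjusted p = 0.092). MEG3, JPX and PVT1 overlapped between groups, at −0.07, 0.42 and 0.33. NEAT1 and PVT1 were also the only members of the list of p53-linked lncRNAs.

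Of the cytoplasmic lncRNAs, 3 were members and OIP5-AS1 fell. OIP5-AS1, known as cyrano and as a binder of miR-7, was at 8.87, 10.3 and 8.25 FPKM in control and 6.35, 5.27 and 6.54 FPKM in depleted samples (−0.59, limma adjusted p = 0.022, and 0.0722 and 0.0856 without control replicate 1 and control replicate 2). NORAD, a sponge of Pumilio proteins and the most abundant of the 3, was at 72.0, 67.9 and 73.2 against 65.9, 44.5 and 60.4 FPKM, separate but not past the test (−0.34, limma adjusted p = 0.16). CYTOR was at 33.3, 44.8 and 36.0 against 47.6, 73.3 and 50.3 FPKM, just short of the threshold (0.57, limma adjusted p = 0.052). None of the housekeeping RNAs listed (such as RMRP, RPPH1 and RN7SK) met the rule. Of their 7 rows, 5 are not typed lncRNA, so the rule left them out at any level, and 2 are lncRNAs below the limit.

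By name, the remaining members were 39 clone-named genes (5 higher, 4 lower), 32 antisense (2 higher, 3 lower), 12 of the LINC series (0 higher, 2 lower), 6 divergent (1 higher, 0 lower), 1 overlapping transcript (0 called) and 18 others (3 higher, 1 lower). Among all genes tested 5.07% were higher and 11.9% lower, and differences between these small classes were not tested. The median log2 fold change was 0.04 for antisense and −0.13 for LINC genes.

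VIM-AS1, antisense to the start of the vimentin gene VIM, showed the largest change of all members. It lies at chr10:17214239-17229985 on the minus strand, and 30.9% of its exon bases overlap VIM exons. VIM-AS1 was at 17.8, 16.7 and 23.4 FPKM in control and 1.37, 1.89 and 1.495 FPKM in depleted samples, and fell by 3.52 on the log2 scale (SE 0.18, limma adjusted p = 5.0e-06). VIM itself was at 4213, 4192 and 4458 against 3821, 3882 and 3588 FPKM, separate but not past the test (−0.19, limma adjusted p = 0.47).

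AC011603.2, a spliced transcript antisense to the alpha-tubulin genes TUBA1B and TUBA1A (chr12:49127782-49188484, plus strand; 35.5% of its exon bases lie over coding exons of the other strand), was the most abundant member to fall. It was at 151.3, 270.2 and 134.7 FPKM in control and 114.0, 107.1 and 60.3 FPKM in depleted samples. Control replicate 2 was the highest and depleted replicate 3 the lowest (−0.97, SE 0.28, limma adjusted p = 0.037). The call was lost without control replicate 2 (−0.66, adjusted p = 0.13) or OFD1-depleted replicate 3 (−0.68, adjusted p = 0.12), under median-of-ratios scaling (adjusted p = 0.058) and in limma without trend (0.076). TUBA1B fell as well, from 1212, 1337 and 1219 to 726.5, 767.8 and 719.1 FPKM (−0.77, limma adjusted p = 0.0033).

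SLC9A3-AS1, antisense to a sodium-proton exchanger gene, was at 14.5, 10.6 and 19.5 FPKM in control and 8.89, 7.06 and 6.98 FPKM in depleted samples (−0.91, limma adjusted p = 0.011, and 0.0505 without control replicate 3). SLC9A3 was low, at 1.82 and 2.44 FPKM on average. AC002401.4, a single-exon gene, was at 9.40, 5.22 and 10.2 against 3.798, 5.03 and 3.57 FPKM, separate by a narrow margin (−0.94, limma adjusted p = 0.021). Its adjusted p was 0.0767, 0.0977, 0.0617 and 0.0738 without control replicate 1, control replicate 3, OFD1-depleted replicate 1 and OFD1-depleted replicate 3, and 0.0587 after quantile normalization. AL391121.1, which starts 339 bases from the start of TRIM8 on the other strand, had close control values of 27.5, 28.01 and 27.5 FPKM and depleted values of 19.8, 13.9 and 17.2 FPKM (−0.72, limma adjusted p = 0.0064).

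LINC01833 and CRNDE, which overlap no coding gene, fell as well. LINC01833, next to the homeobox gene SIX3, was at 14.3, 11.7 and 10.0 FPKM in control and 7.45, 7.40 and 6.91 FPKM in depleted samples (−0.70, limma adjusted p = 0.0091, and 0.0635 without control replicate 1). CRNDE, which starts near the homeobox gene IRX5, was at 9.84, 10.8 and 9.86 against 6.35, 7.87 and 6.07 FPKM (−0.59, limma adjusted p = 0.018). CRNDE lost its call with any sample left out other than OFD1-depleted replicate 2, with adjusted p from 0.0539 without OFD1-depleted replicate 1 to 0.068 without control replicate 2. LINC00339 (−0.69, limma adjusted p = 0.035) lost it in the same settings, up to 0.169 without control replicate 3, and under median-of-ratios scaling, quantile normalization and limma without trend (0.0515, 0.0775 and 0.0507). AL358781.1 was at −0.59 (limma adjusted p = 0.017), and its adjusted p was 0.0873, 0.0916 and 0.0616 without control replicate 1, control replicate 3 and OFD1-depleted replicate 3.

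HIF1A-AS3, antisense to the hypoxia factor gene HIF1A, showed the largest rise. It was at 8.60, 5.32 and 6.06 FPKM in control and 14.97, 11.9 and 14.6 FPKM in depleted samples (1.06, SE 0.18, limma adjusted p = 0.0025). HIF1A was at 106.4 ± 5.39 FPKM in control and 93.8 ± 19.4 in depleted samples (SD, n = 3 each; −0.20, limma adjusted p = 0.44). AC073365.1 was at 4.36, 5.21 and 5.65 against 9.50, 11.0 and 7.12 FPKM (0.83, limma adjusted p = 0.0093). SFTA1P, a transcribed relative of a surfactant-associated gene, was at 10.1, 12.03 and 9.90 against 16.3, 21.0 and 17.1 FPKM (0.75, limma adjusted p = 0.0050). AC135050.6, inside KAT8 on the same strand with no shared exon bases, was at 7.25, 7.25 and 6.87 against 12.2, 12.9 and 11.1 FPKM (0.75, limma adjusted p = 0.0025). All 4 were separate between the groups, and all 4 stayed past the threshold with each sample left out. The remaining members that rose, named after their values were seen to complete the count, were LNCOG, PAX8-AS1, MAN1B1-DT, AC016542.1 and AP000695.1, with log2 fold changes of 0.66, 0.54, 0.53, 0.48 and 0.48. PAX8-AS1 and MAN1B1-DT lost the call without control replicate 1 or control replicate 3 (limma adjusted p up to 0.058 and 0.0823), and AC016542.1 and AP000695.1 with any sample left out other than OFD1-depleted replicate 2 (up to 0.257 and 0.152, without control replicate 1).

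**Figure D3:**
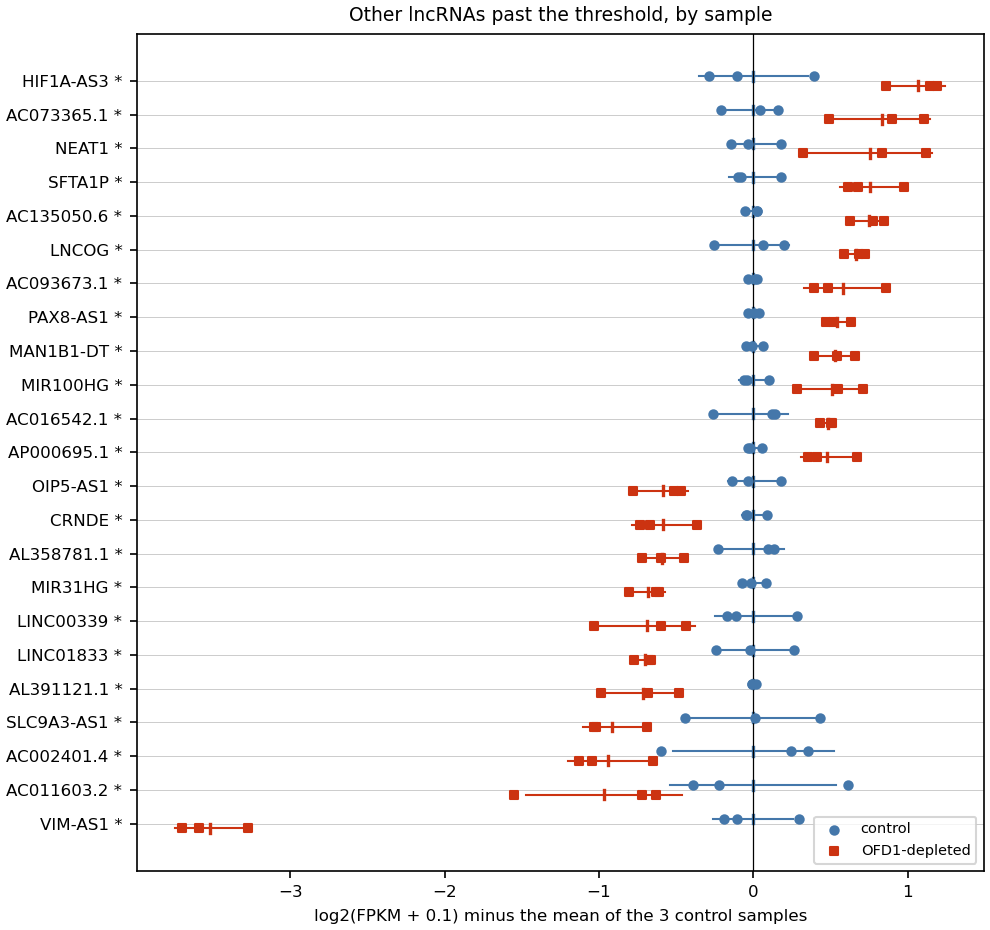
The 23 lncRNAs past a limma adjusted p of 0.05 that are not snoRNA hosts, by sample, as log2(FPKM + 0.1) minus the mean of the 3 control samples (x axis). Circles are control and squares OFD1-depleted samples, ticks the means and lines 1 SD to each side. The groups are separate in every gene shown, by the widest margin in VIM-AS1, while AC002401.4 and NEAT1 have a sample near the other group.

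Overlap with coding genes was common. Of the 133 members, 83 overlap the body of a coding gene (67 on the other strand, 27 on the same strand), and 67 share exon bases with coding exons on either strand. The 50 without any overlap had 6 higher and 5 lower with a median of 0.02, and the 83 with overlap had 14 higher and 6 lower with a median of 0.08. Among snoRNA hosts, 7 of 12 with shared coding exon bases rose, against 1 of 8 without. Although a directional library kit is named, the strand setting of the counting is not given, so a lncRNA and the coding gene across from it cannot be fully told apart. Strand cannot separate reads from exon bases shared with a coding gene on the same strand.

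In 61 pairs, a member could be set beside a tested coding gene that overlaps it, or starts within 2 kb of it, on the other strand. The log2 fold changes had the same sign in 34 pairs, with r = 0.17 and rho = 0.20 across pairs from the same 6 libraries, given as a description. Of 13 pairs whose lncRNA was past the threshold, the coding gene was past it in the same direction in 3 (AC011603.2 with TUBA1B, OIP5-AS1 with OIP5, AC093673.1 with ZYX), in the opposite direction in 0, and not past it in 10. For comparison, 5.07% of all genes tested were higher and 11.9% lower. With so few pairs, a link between a lncRNA and its coding gene was not tested. OIP5, a gene of centromere assembly, fell from 8.45 ± 2.98 to 3.68 ± 0.23 FPKM (SD, n = 3; −1.13, limma adjusted p = 0.0046). AC093673.1, which starts 800 bases from ZYX, was at 12.3, 12.7 and 12.8 against 17.7, 22.9 and 16.5 FPKM (0.58, limma adjusted p = 0.020, and 0.0815, 0.0583 and 0.0673 without control replicates 1, 2 and 3). ZYX, which encodes the focal adhesion protein zyxin, rose from 318.7 ± 5.76 to 492.8 ± 68.1 FPKM (SD, n = 3; 0.62, limma adjusted p = 0.012).

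In other pairs the fold changes lay on different sides of 0. CRIM1-DT, which starts 664 bases from CRIM1 on the other strand, was at 13.5, 16.4 and 12.3 FPKM in control and 17.3, 17.95 and 17.9 FPKM in depleted samples (0.34, limma adjusted p = 0.12). CRIM1 fell, from 149.9 ± 11.7 to 72.8 ± 17.7 FPKM (SD, n = 3; −1.07, limma adjusted p = 0.0021). RGMB-AS1 was at 8.07, 4.77 and 5.69 against 13.6, 5.06 and 16.7 FPKM, with depleted replicate 2 at the control level (0.79, limma adjusted p = 0.17). RGMB was at 76.9 ± 2.58 and 57.1 ± 8.93 FPKM (SD, n = 3; −0.44, limma adjusted p = 0.054). CRIM1-DT was chosen after its values were seen.

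**Figure D4:**
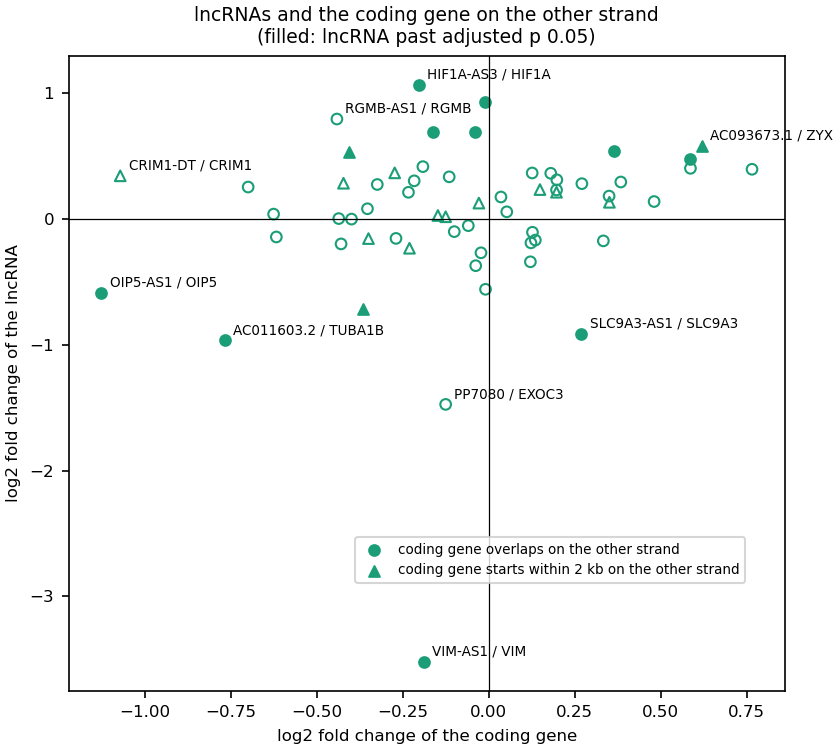
Log2 fold change of the coding gene (x axis) against that of the lncRNA (y axis) in the 61 pairs, with circles for overlap on the other strand, triangles for starts within 2 kb, and filled points for lncRNAs past a limma adjusted p of 0.05. Points fall in all 4 quadrants, and VIM-AS1 lies at −3.52 while VIM lies at −0.19.

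Several members spread widely between replicates, and the cases described next are not a complete list. FP236383.5, FP236383.4 and FP671120.6, the 3 highest control means, lie on the minus strand of chromosome 21 inside the 18S ribosomal RNA genes RNA18SN1, RNA18SN3 and RNA18SN2, and FP671120.7 lies inside the related RNA18SP5. FP236383.5 was at 548.5, 278.7 and 110.1 FPKM in control and 207.4, 483.9 and 154.6 FPKM in depleted samples. The 4 genes moved together: relative to FP236383.5 over the 6 samples, FP236383.4 was at 0.951 to 0.972, FP671120.6 at 0.854 to 0.865 and FP671120.7 at 0.519 to 0.588. They summed to 1827, 939.2 and 372.1 FPKM in control and 697.6, 1611 and 529.5 FPKM in depleted samples, and none passed the test (log2 fold changes −0.04 to −0.02). They are near-identical copies opposite ribosomal RNA, so their values are uncertain. Without them, the summed level of the other 129 members was 2342 to 2594 FPKM in control and 2554 to 3018 FPKM in depleted samples, and their median log2 fold change was 0.08. AC006064.4, which lies wholly within GAPDH exons on the other strand, was at 15.7, 7.44 and 0 FPKM in control and 0, 17.1 and 3.08 FPKM in depleted samples. PP7080, which shares 85.4% of its exon bases with SLC9A3 on the same strand, was at 8.21, 6.64 and 5.66 against 8.83, 3.91 and 0.319 FPKM, so that a single sample set its log2 fold change of −1.48 (SE 0.81, limma adjusted p = 0.25). PP7080 and AC006064.4 were chosen after their values were seen.

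**Figure D5:**
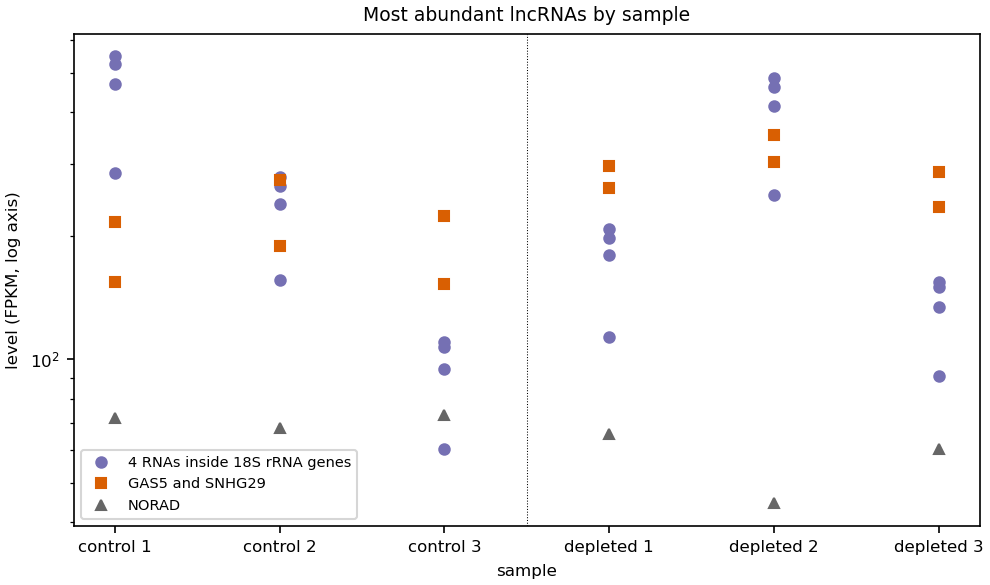
Level in each sample (y axis, FPKM, log scale) of the 4 lncRNAs inside 18S ribosomal RNA genes (circles), GAS5 and SNHG29 (squares) and NORAD (triangles). The 4 circles move together and span 372.1 to 1827 FPKM in sum between control samples, while GAS5 stays between 152.2 and 189.3 FPKM there.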

How the data were processed

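RNA from RPE1 cells was made into libraries that the study's methods call directional (the labels also name a kit that does not mark strand), and read as pairs. Per the submitters' processing notes HISAT2 2.0.5 and StringTie were used. By the study's methods the reference was Ensembl version 94 (GRCh38), and the authors deposited FPKM values per gene and sample. Filters, the strand setting and any poly(A) selection or ribosomal RNA removal are not given in the sources used here. The table holds no counts.

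Groups came from the treatment label. Members and gene lists were chosen with earlier results of these data known. The 12025 genes whose 6 samples averaged 1 FPKM or more were tested with limma 3.58.1 (R 4.3.3, trend, two-sided, Benjamini-Hochberg) on log2(FPKM + 0.1). Fold changes are on that scale, which understates changes of low genes. Exact permutation of 3 against 3 samples cannot give a p below 0.1 and was not used for calls. Data were simulated for 12025 genes with 200 changed. Of those changed by 1 on the log2 scale 62.2% were called, and of those changed by 2, 97.3%. In all 171 were called, 163 of them changed. The simulation drew independent normal noise for each gene. In the real data 610 genes were called higher and 1429 lower, and OFD1-depleted replicate 2 lay apart from its group. The simulated rates may therefore not carry over. Named genes were the 10 with the highest control mean, the 10 largest rises and falls past the threshold without overlap, all members of the lists, the 5 antisense or divergent members with the largest change beside their coding gene, and the 2 on each side of the limit. Overlaps, exons and start windows came from GENCODE 44 (132 of 133 members matched by ID, all on the same strand at overlapping positions). MicroRNA and snoRNA entries came from RefSeq (GRCh38.p14). Alternatives changed the pseudocount, filter, scaling, variance model, member limit and samples, and added a replicate block.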

Additional observations from a re-analysis of the deposited data

How the results depend on the processing

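Across pseudocounts of 1 and 0.01, median-of-ratios scaling, a limma fit without trend and a filter at 5 FPKM, the counts of lncRNAs and of snoRNA hosts past the threshold stayed within 1.5 times those reported. Testing without a filter, which adds genes to the correction, left 10 higher, 3 lower and 5 hosts higher. TPM gave 13 higher and a median of −0.09, quantile normalization a median of 0.167, and array weights 33 higher and 17 lower. With 1 sample left out at a time there were 11 to 26 higher, 5 to 16 lower, medians of 0.068 to 0.157 and 6 to 9 hosts higher. Limits of 2 and 10 FPKM gave 40 and 13 higher and 20 and 7 lower among 351 and 71 members, with a median of 0.166 at 10 FPKM. A limit on the mean of all 6 samples gave 140 members with a median of 0.177, and a limit on the OFD1-depleted mean gave 153 with 34 higher and a median of 0.225, a rule that lets in genes that rose across the limit. The 50 members without coding overlap had 6 higher, 5 lower and 1 host higher. The 106 members without a coding gene on the same strand had 14 higher, 8 lower and 6 hosts higher.

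Replicate numbers were shared between the groups in the labels. Deviations from the group means had correlations of 0.06, 0.05 and 0.01 between same-numbered samples. Between samples of different number they ran from −0.08 to 0.05. Values this close to 0, from 3 samples a group, cannot decide whether samples were paired. A replicate block gave 23 higher (18 of them among the 20) and 14 lower (11 shared), with 10 hosts higher and the median still 0.054.

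Of 915 values for 54 named genes, 781 kept direction and side of the threshold, 64 lost the call, 26 gained it and 44 changed sign, all 44 in genes not past the threshold. Under median-of-ratios scaling FP236383.4, FP236383.5, FP671120.6, FP671120.7 and SNHG11 were at 0.013, 0.016, 0.024, 0.04 and 0.013, and quantile normalization put MEG3 and SNHG11 at 0.034 and 0.057. TPM put MALAT1, SNHG1 and SNHG18 at −0.141, −0.023 and −0.121, the total without mitochondrial genes put MALAT1 and SNHG18 at −0.054 and −0.034, and array weights put MALAT1, SNHG18 and SNHG7 at −0.116, −0.107 and −0.06. With 1 sample left out at a time, FP236383.4 ran from −0.643 to 0.504, FP236383.5 from −0.648 to 0.51, FP671120.6 from −0.639 to 0.515, FP671120.7 from −0.615 to 0.502, MALAT1 from −0.152 to 0.206, MEG3 from −0.234 to 0.07, MIR4435-2HG from −0.005 to 0.268, SNHG11 from −0.22 to 0.139, SNHG18 from −0.215 to 0.19 and SNHG7 from −0.131 to 0.437. The cause was not tested. FPKM without counts gives no interval for counting error, and 3 samples a group limit what can be called.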
